A study of Homo sapiens
Mus musculus with 8 samples.

Results

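TALL-104 cells of 4 droplet libraries were compared, 2 from each of 2 cell preparations. TALL-104 is a human leukemic CD8+ T-cell line that carries cytotoxic granules and is grown with interleukin-2, and its cells are small. Cells had been mixed in equal parts with the human CD4+ T line Jurkat and the mouse lines EL4 and IVA12, and captured with the 10x Genomics Chromium 3p v3 kit, which counts transcripts from the 3′ end with unique molecular identifiers (UMIs). No line was treated or edited, and the 4 libraries share the kit and the 4 lines mixed in equal parts. Libraries are called here by the number in their titles, and 3000 cells (21, 22) or 6000 cells (23, 24) were targeted. The preparation of 21 and 23 is called the first and that of 22 and 24 the second. These names, and the words rise and fall below, imply no order in time. The study's supplement lists 1 cell mixture for libraries 21 and 23 and another for 22 and 24, while GEO's labels do not name the preparations. Nothing in the sources used here says that the 2 libraries of a preparation came from separate cultures. The p-values therefore rest on the spread between libraries, which may be technical and was largely pooled over genes. What else differed between the preparations is not given in the sources used here.

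TALL-104-like cells were chosen by barcode: at least 1000 UMIs, over 80% of UMIs on human genes, a share of mitochondrially encoded UMIs under 10%, and at least 3 UMIs and 0.1% of human UMIs on NKG7, CST7 and CD8A together. The rule held for 1902 of 25390 barcodes with at least 1000 UMIs in the 4 libraries (32377 in the 7 libraries of the series used here). It gave 463 cells in library 21, 1003 in 23, 152 in 22 and 284 in 24. The other human line served for comparison: 1482, 2999, 129 and 349 Jurkat-like cells in libraries 21, 23, 22 and 24 passed the same limits on UMIs, human share and mitochondrial share, with almost no UMIs of the 3 genes and at least 3 UMIs of Jurkat markers. They were far deeper than TALL-104-like cells, with medians of 9922 to 17986 UMIs. No doublet caller was run. Of the TALL-104-like cells, 6, 28, 8 and 14 (libraries 21, 23, 22, 24) held over 5000 UMIs.

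As background, a large share of the messenger RNA of a growing lymphocyte encodes a few abundant groups: ribosomal proteins and translation factors, which make up the protein synthesis machinery, and subunits of the respiratory chain, the proteasome and the cytoskeleton. In TALL-104 the interleukin-2 receptor signals through JAK1 and JAK3 to STAT5, and granzymes, perforin and granulysin are the granule proteins of a killer cell. MALAT1 and NEAT1 are long RNAs that stay in the nucleus.

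The label was checked against markers. Of the 13 TALL-104 markers that the rule did not use, 11 were higher per human UMI in TALL-104-like than in Jurkat-like cells in all 4 libraries, the exceptions being CD8B and KLRD1. These 13 held between 0.693% and 0.818% of human UMIs in TALL-104-like cells and at most 0.0367% in Jurkat-like cells. Jurkat markers were used to choose Jurkat-like cells and not TALL-104-like cells, so their higher level in the former is no independent check. They held 0.202% and 0.230% of human UMIs in the TALL-104-like cells of libraries 21 and 23 and 0.141% and 0.151% in those of 22 and 24, against 0.688% to 0.718% in Jurkat-like cells. Of the 8 Jurkat markers tested between the preparations in TALL-104-like cells, 5 fell and 1 rose, beside 18.1% and 18.7% of all genes, and their part in the other falls was not tested. The rule gene CD8A itself was low, with a UMI in 8.21%, 8.28%, 9.21% and 12.7% of TALL-104-like cells of libraries 21, 23, 22 and 24 (median depth 2036, 2166, 2792 and 2593 UMIs), against 1.69%, 1.67%, 0.775% and 0.287% of Jurkat-like cells (17770, 17986, 10522 and 9922 UMIs). CD8B, the partner chain of CD8A, had a UMI in at most 0.432% of TALL-104-like cells, and in 15.65%, 11.8%, 9.30% and 4.01% of Jurkat-like cells of libraries 21, 23, 22 and 24.

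The measures that the rule used are given as a description, with no test. The median depth of a cell was 2036 and 2166 UMIs in libraries 21 and 23, and 2792 and 2593 UMIs in libraries 22 and 24. The mitochondrial limit took more cells from the second preparation: with no limit there were 592, 1007, 242 and 582 cells in libraries 21, 23, 22 and 24, of which 78.2%, 99.6%, 62.8% and 48.8% passed. Just inside that limit (9% to 10%) lay 93, 5, 54 and 101 cells, and just outside it (10% to 11%) 70, 1, 40 and 115. At the 80% limit for human UMIs, 140 cells of library 23 lay between 80% and 82% and 69 between 78% and 80%, against at most 5 in either band elsewhere. At the lower limits, 2, 1, 2 and 1 barcodes lay within 100 UMIs below 1000 and 3, 4, 0 and 0 within 100 UMIs above it, while 44, 92, 1 and 9 barcodes held 2 UMIs of the 3 genes and 64, 136, 13 and 38 held 3. NKG7, a membrane protein of cytotoxic granules, was at 3036 and 2602 CPM (UMIs of the gene scaled to a common total after edgeR's TMM correction of that total) in libraries 21 and 23 and at 1896 and 1737 in 22 and 24. Without the TMM correction it was at 2639 and 2364 CPM and at 2117 and 1969 CPM. CST7, an inhibitor of granule proteases, was at 1071 and 1084 CPM and at 648 and 634 CPM. CD8A was at 48.9 and 45.7 CPM and at 32.2 and 52.4 CPM. Of the mitochondrial genes, MT-CO2 was at 21070 and 13410 CPM in libraries 21 and 23 and at 12110 and 11730 CPM in 22 and 24, while MT-CO3 was at 11380 and 6715 CPM and at 12660 and 11910 CPM.

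Library 23 stood apart in purity. The median share of mouse UMIs in its TALL-104-like cells was 15.2%, against 5.94% in library 21, 2.15% in 22 and 6.29% in 24. From these shares and the profile of barcodes under 100 UMIs, RNA from outside the cell was estimated to hold 7.57% of the human UMIs in library 23 and between 0.331% and 1.02% in the other 3. That profile was unlike in library 23, with 2755384 UMIs over 1535583 barcodes, against 4963384 over 915108 in library 21. Its human share was 31.8%, against 9.61% to 13.7% in the other 3. Whether it stands for the RNA around these cells was not tested, so the 7.57% is uncertain. Libraries shared 1 barcode among TALL-104-like cells (21 and 24). Total UMIs per library ran from 38116299 to 251164949. The TALL-104-like cells held 1026504, 2433262, 455575 and 815918 UMIs in libraries 21, 23, 22 and 24. The sum was smallest in library 22, which had the fewest of these cells.

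The first comparison asked which genes differed between the 2 preparations of the same line. UMIs were summed over TALL-104-like cells of each library, and libraries 22 and 24 were set against 21 and 23 with edgeR's quasi-likelihood test. The spread behind its p-values and SEs came mostly from a trend over genes, with 2 residual and 29.5 prior degrees of freedom. All CPM values are scaled with edgeR's TMM factors unless said otherwise, and a rise or a fall is the second preparation against the first. Of 8029 human genes tested, 2951 (36.8%) passed an adjusted p of 0.05: 1500 (18.7%) were higher and 1451 (18.1%) lower in libraries 22 and 24, with a median log2 fold change of 0.018 over all genes. The split depended on the scaling. With library totals in place of TMM, which shifts the median of all genes to 0.35, 2521 genes were higher and 594 lower. Changes below are therefore relative to the typical gene. Without library 24, 1346 of 8783 genes passed, 605 higher and 741 lower. Counts of a gene list under these 2 settings are to be read beside these totals, which are smaller for falls than in the main test.

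The fall grew with the level of a gene. Among the 117 genes with a mean of at least 1000 CPM, 106 fell and 1 rose, with a median log2 fold change of −0.91. Among the 89 genes from 500 to 1000 CPM, 63 fell and 5 rose (median −0.59), and among the 427 from 200 to 500 CPM, 233 fell and 79 rose (median −0.45). Under 100 CPM the order was turned. From 50 to 100 CPM 396 of 1614 genes rose and 339 fell (median −0.013), and from 20 to 50 CPM 574 of 3069 rose and 303 fell (median 0.11). Below 20 CPM 244 of 1876 genes rose and 82 fell (median 0.20). The lowest genes lie near the filter on low counts, which can keep a gene through the preparation where it is high. With no such filter, 1227 of 15709 genes rose and 1576 fell over all levels. Of the 130 genes above 500 CPM that do not encode ribosomal proteins, 98 fell and 6 rose. Among those that rose were NEAT1, JAK1 and, named after their values were seen, MSN, RNF213 and SYNE2. SYNE2, which encodes a very large protein that ties the nucleus to the cytoskeleton, was at 394 and 388 CPM in libraries 21 and 23 and at 1113 and 1432 CPM in 22 and 24 (log2 fold change 1.71 ± 0.14, SE). The groups did not overlap, in a gene named after its values were seen, and the share of all genes without overlap was not counted. Of the 58 genes with a mean of at least 500 CPM that are in no list here, 45 fell and 3 rose (median −0.62). The shares of all genes given beside the lists below cover every level. Lists of abundant genes are therefore also to be read beside the counts of this paragraph, and no test against genes of like level was run.

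**Figure D1:**
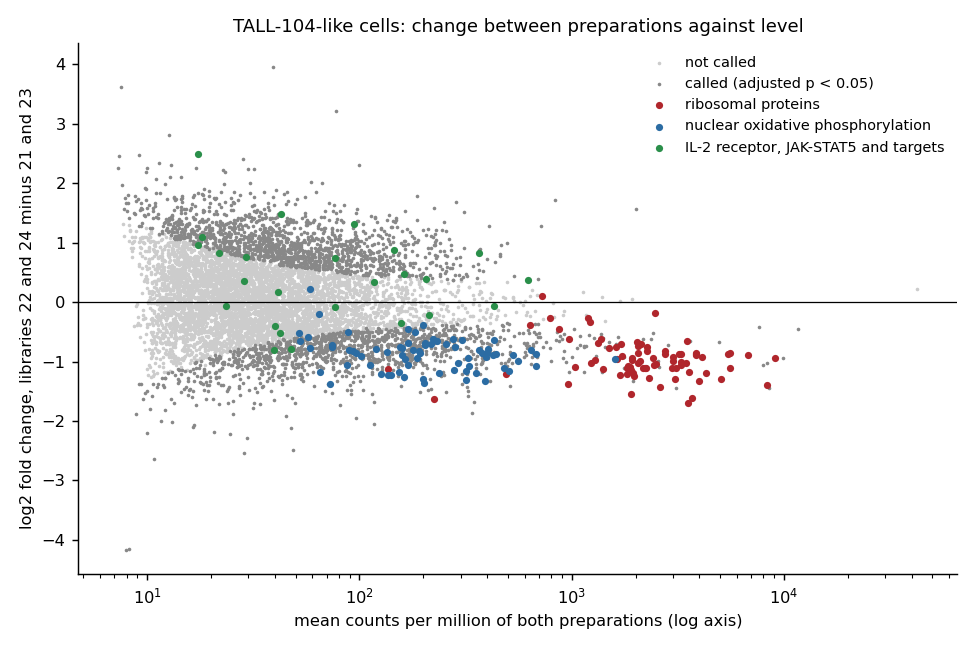
Each point is a gene tested in TALL-104-like cells, with its mean CPM of both preparations on the x axis (log scale) and its log2 fold change (libraries 22 and 24 minus 21 and 23) on the y axis. Called genes are dark grey, and the 79 ribosomal protein genes (red) sit at the right and below 0 (median −0.99), the 73 nuclear genes of oxidative phosphorylation (blue) below 0 (median −0.85), and the interleukin-2 group (green) on both sides of 0.

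Ribosomal protein genes fell together. Of 79 tested, 74 were lower and none was higher in libraries 22 and 24, beside 18.1% of all genes lower, and the median log2 fold change was −0.99. Among those that did not pass were RPL13A (−0.18), RPL23 (−0.27), RPL27A (−0.34) and RPS20 (0.09). RPL34, a protein of the large subunit (ENSG00000109475), fell furthest: it was at 5464 and 5378 CPM in libraries 21 and 23 and at 1729 and 1633 CPM in 22 and 24 (log2 fold change −1.69 ± 0.14, adjusted p = 6.84e-10). RPLP1, of the ribosomal stalk, was at 11940 and 12120 CPM and at 4740 and 4416 CPM (−1.39 ± 0.15). The preparations were far apart in both genes and the 2 libraries of each nearly equal. RPL10 (−0.94 ± 0.15), RPL13 (−0.90 ± 0.15) and RPS12 (−1.11 ± 0.14), the other most abundant members, fell as well. With library totals, 70 fell and 1 rose. Among other abundant genes, those with a mean of at least 500 CPM in no list, 45 of 58 fell in the main test (median −0.62).

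As a share of all human UMIs, ribosomal protein genes held 24.2% in library 21 and 24.2% in 23, but 15.7% in 22 and 14.9% in 24. The same genes held 22.4% and 22.9% in the Jurkat-like cells of libraries 21 and 23, and 24.8% and 24.8% in those of 22 and 24, lower in the second preparation for TALL-104-like cells and slightly higher for Jurkat-like cells of the same libraries. In barcodes under 100 UMIs the share was 21.3%, 20.3%, 23.4% and 20.9% (libraries 21, 23, 22, 24). Between cells of TALL-104 the median share was 23.9% and 23.9% in libraries 21 and 23, with 10th to 90th percentiles of 18.6% to 29.4% and 18.7% to 29.6%. It was 15.1% (11.7% to 19.2%) in library 22 and 14.3% (11.04% to 19.3%) in library 24. The shift therefore lay in most cells: 87.4% of the cells of libraries 22 and 24 were under 18.6%, the 10th percentile of the first preparation.

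Since the mitochondrial limit kept different fractions of cells, the share was also read at matched mitochondrial content and without the limit. In cells with 6% to 8% mitochondrial UMIs it was 24.6% and 23.2% in libraries 21 and 23 and 16.7% and 14.96% in 22 and 24 (207, 318, 42 and 84 cells). At 8% to 10% it was 23.0% and 20.9% against 15.3% and 14.9%. At 12% to 15%, outside the limit, it was 20.5% in library 21 against 14.5% in 22 and 13.8% in 24. Depth was matched in the same way: in cells of 2000 to 3000 UMIs the share was 25.65% and 24.8% against 14.7% and 14.5%. Within each of these bands the preparations stayed apart.

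**Figure D2:**
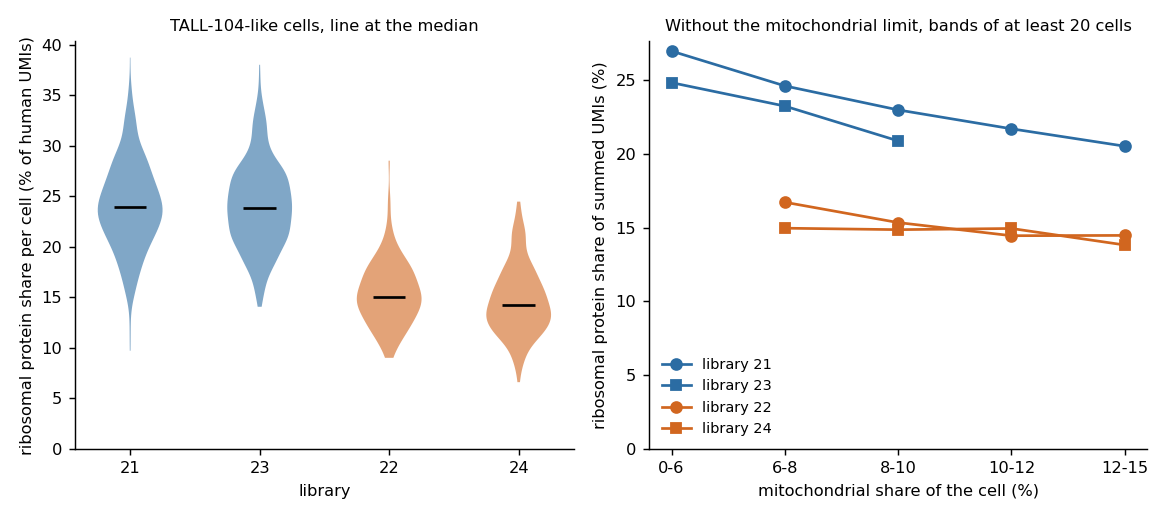
Left, the distribution over TALL-104-like cells of the share of human UMIs on ribosomal protein genes in each library, with a line at the median (23.9% and 23.9% in libraries 21 and 23, 15.1% and 14.3% in 22 and 24). Right, the share of summed UMIs in bands of mitochondrial share, with bands of under 20 cells left out: in every band that both preparations fill, libraries 22 and 24 (orange) lie below 21 and 23 (blue).

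Most translation factors fell. Of 37 tested, 24 fell and 2 rose (median −0.60), beside 18.1% and 18.7% of all genes, and with library totals 15 fell and 6 rose. EIF3E, a subunit of the initiation factor eIF3, was at 552 and 505 CPM in libraries 21 and 23 and at 153 and 174 CPM in 22 and 24 (−1.68 ± 0.15). The elongation factor EEF1A1 was at 12020 and 9426 CPM and at 5360 and 4942 CPM (−1.06 ± 0.15). TPT1 (−1.03 ± 0.15), GNB2L1, a scaffold of the small subunit (−0.93 ± 0.14), and EIF1, which sets the start codon (−0.60 ± 0.13), fell too, though EIF1 did not pass without library 24 or with library totals. Both members that rose, named after their values were seen, are large scaffold subunits of initiation factors: EIF4G1 by 0.99 and EIF3A by 0.62 on the log2 scale.

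Nuclear genes of oxidative phosphorylation fell nearly as a block, with 69 of 73 lower and none higher (median −0.85), beside 18.1% of all genes lower, and with library totals 49 fell, beside 594 of all 8029 genes. They held 2.09% and 2.29% of human UMIs in libraries 21 and 23 and 1.52% and 1.44% in 22 and 24. ATP5E, a small subunit of ATP synthase, was at 1784 and 2416 CPM and at 1081 and 1095 CPM (−0.95 ± 0.15). COX7C and COX4I1, of cytochrome c oxidase, fell by 1.07 ± 0.14 and 0.80 ± 0.14, and ATP5L, of ATP synthase, fell by 0.87 ± 0.14 on the log2 scale. At 6% to 8% mitochondrial UMIs the share was 2.06% and 2.37% against 1.55% and 1.49%. The genes of the same complexes that mitochondria encode belong to the rule and carry no test. Among them MT-CO1 was at 19980 and 13890 CPM in libraries 21 and 23 and at 19100 and 18080 CPM in 22 and 24, and MT-ATP6 at 10330 and 7004 CPM and at 8405 and 8369 CPM, so library 23 was the low one.

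Of 37 proteasome genes, 28 fell and none rose (median −0.71), beside 18.1% and 18.7% of all genes, with 18 lower without library 24 and 16 with library totals. POMP, which assembles the core particle, was at 417 and 375 CPM in libraries 21 and 23 and at 209 and 188 CPM in 22 and 24 (−1.001 ± 0.15). PSMA7 (−0.73 ± 0.14), PSMB1 (−0.61 ± 0.15) and the activator subunit PSME1 (−0.59 ± 0.15) fell as well, the last 2 not without library 24 or with library totals. The heat shock and chaperonin group leaned down, with 16 of 29 lower and 1 higher (median −0.56) beside the same shares. It had 7 lower and none higher without library 24, and 4 lower and 3 higher with library totals. Relative to the median of all genes it ran from −0.61 to −0.47 over the alternatives. Its share of human UMIs was 0.638% and 0.635% in libraries 21 and 23 and 0.597% and 0.633% in 22 and 24, so library 24 lay close to the first preparation. HSP90AA1, the inducible form of HSP90, did not pass and was at 1385, 1317, 1361 and 1503 CPM (libraries 21, 23, 22, 24; 0.09 ± 0.13, adjusted p = 0.635). PTGES3, an HSP90 cofactor, fell (−0.94 ± 0.14), as did HSP90AB1 (−0.57 ± 0.14) and HSPA8 (−0.50 ± 0.14), which both lost the call without library 22 and with library totals, HSPA8 also without library 24.

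**Figure D3:**
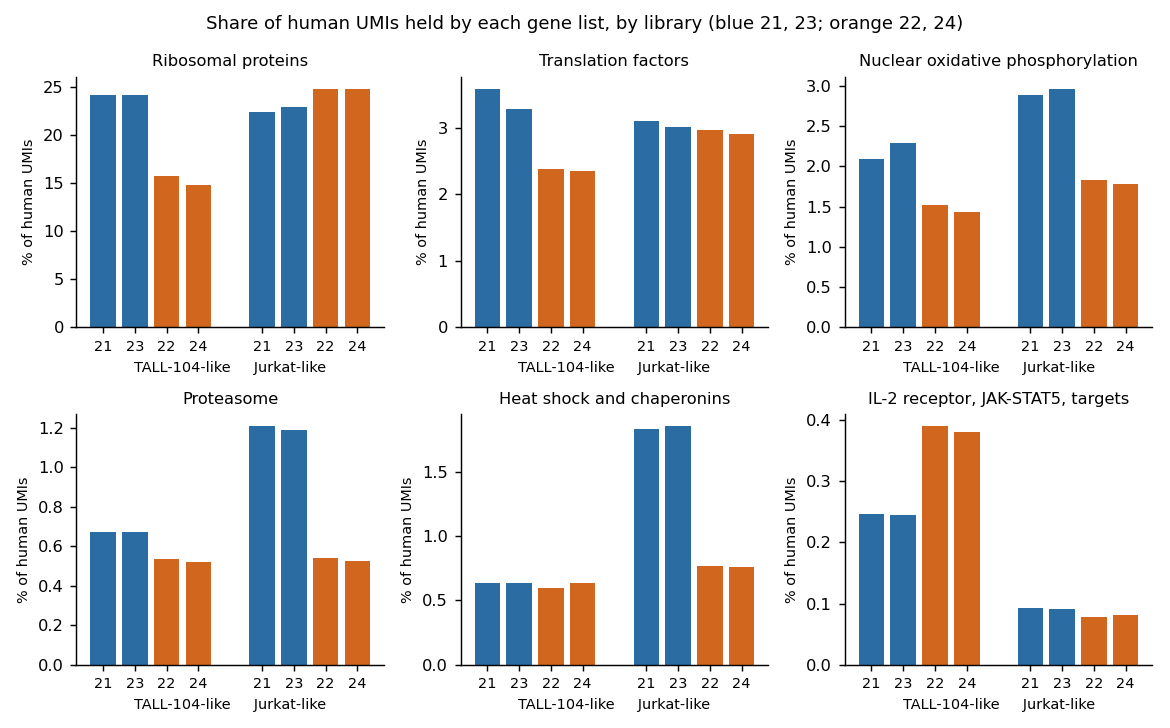
Percent of human UMIs held by 6 gene groups in each library, in TALL-104-like cells (left bars) and Jurkat-like cells (right bars), blue for libraries 21 and 23 and orange for 22 and 24. Ribosomal protein genes held 24.2% and 24.2% in libraries 21 and 23 and 15.7% and 14.9% in 22 and 24 in TALL-104-like cells, and heat shock genes held 1.84% and 1.86% and then 0.771% and 0.757% in Jurkat-like cells.

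The interleukin-2 group, the receptor, its kinases and STAT5 and their known targets, leaned up: 9 of 25 tested genes were higher and 2 lower, beside 18.7% of all genes higher, with a median of 0.36. It held 0.246% and 0.245% of human UMIs in libraries 21 and 23 and 0.390% and 0.382% in 22 and 24. At 6% to 8% mitochondrial UMIs the share was 0.248% and 0.242% against 0.417% and 0.397%. Fewer rose without library 24. With DESeq2 3 rose and none fell, beside 323 higher and 647 lower of 5359 genes. With library totals 14 rose, beside 2521 of all 8029 genes. ID2, a transcriptional inhibitor of cytotoxic lymphocytes, was at 298 and 235 CPM in libraries 21 and 23 and at 469 and 461 CPM in 22 and 24 (0.82 ± 0.15, adjusted p = 7.74e-05). JAK1 rose by less (545 and 549 against 708 and 701 CPM, 0.36 ± 0.13), and did not pass under 8 of the alternatives. IL2RG, the shared receptor chain, was at 428, 456, 402 and 443 CPM (−0.06 ± 0.14), and SOCS1, an inhibitor of JAK signalling, at 258, 202, 203 and 190 CPM (−0.21 ± 0.16), and neither passed.

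Further members of the group were chosen after their values were seen. The receptor chain IL2RB was at 102.5 and 100.4 CPM in libraries 21 and 23 and at 213 and 163 CPM in 22 and 24 (0.87 ± 0.17, adjusted p = 0.000224). The kinase JAK3, which binds IL2RG, was at 54.9 and 53.1 CPM and at 149 and 122 CPM (1.31 ± 0.19). BCL2, a survival factor, was at 60.8 and 55.2 CPM and at 92.6 and 99.02 CPM (0.75 ± 0.20). Against these, MYC fell from 60.8 and 58.4 CPM to 42.3 and 29.1 CPM (−0.79 ± 0.25). The 2 preparations did not overlap in any of these 4 genes, which adds no support, since they were chosen after their values were seen. The share of all genes without overlap was not counted.

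Granule genes as a list did not stand out: of 20 tested, 4 rose and 5 fell (2 and 3 without library 24), near the 18.7% and 18.1% of all genes. GZMA, a granzyme, was at 2137 and 1894 CPM in libraries 21 and 23 and at 1296 and 1177 CPM in 22 and 24 (−0.71 ± 0.14), and the protease CTSC fell by 0.47 ± 0.14, though not without library 24 or with library totals. GNLY, which encodes granulysin, was at 29.8 and 26.3 CPM and at 68.4 and 141 CPM (2.01 ± 0.26, adjusted p = 6.62e-07), so it rose in both libraries and by unequal amounts, with 1.29 without library 24 and 1.19 to 1.32 with stricter marker limits, thinned cells, no cell over 5000 UMIs or mitochondrial share under 20%. GZMB and PRF1 were named after their values were seen. GZMB, a granzyme that is abundant in activated killer cells, was low at 5.96, 5.26, 20.1 and 38.4 CPM (2.49 ± 0.43), with a UMI in 1.08%, 0.997%, 4.61% and 5.63% of cells, and perforin PRF1 did not pass at 299, 289, 304 and 291 CPM (0.02 ± 0.14).

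Of 11 NK receptors and adaptors tested, 3 fell and 1 rose, beside 18.1% of all genes lower and 18.7% higher. KLRB1, the lectin receptor CD161, was at 2577 and 2229 CPM in libraries 21 and 23 and at 1101 and 1135 CPM in 22 and 24 (−1.10 ± 0.14), and the adaptor HCST fell by 0.83 ± 0.14 on the log2 scale. KIR3DL2 (−0.46 ± 0.17) lost the call without library 21, 22 or 24, and FCER1G (−0.17 ± 0.14) did not pass. Among 14 cytokines and chemokines, of which 2 rose and 3 fell, near those shares, CCL5 was at 4197 and 4623 CPM and at 2961 and 2637 CPM (−0.66 ± 0.14), and IL32 fell by 0.42 ± 0.15, each losing the call without library 24. LTB (0.05 ± 0.14) and XCL1 (0.07 ± 0.15) did not pass. Of 25 genes of the T-cell receptor and its signalling 4 rose and 5 fell, again near the 18.7% and 18.1% of all genes, with CD3D at 1186 and 1211 CPM against 658 and 591 CPM (−0.95 ± 0.14), CD7 at −0.76 ± 0.14, CD3E at −0.51 ± 0.14 (not called without library 24 or with library totals) and the phosphatase PTPRC at 0.17 ± 0.13, which did not pass.

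The actin, S100 and galectin, and glycolysis lists held more falls than rises, and MHC class I did not, beside 18.1% of all genes lower and 18.7% higher. Rises in the actin list and falls in MHC class I were no more frequent than those shares. Of 44 actin cytoskeleton genes 20 fell and 8 rose (7 and 3 without library 24, 8 and 13 with library totals). ACTB was at 6301 and 5860 CPM in libraries 21 and 23 and at 3850 and 3752 CPM in 22 and 24 (−0.68 ± 0.14), and TMSB4X (−0.45 ± 0.15), TMSB10 (−0.53 ± 0.14) and PFN1 (−0.61 ± 0.14) were lower, all 4 losing the call without library 24. Of 10 S100 proteins, galectins and associated genes 9 fell and 1 rose, with S100A11 at 1642 and 1517 CPM against 777 and 635 CPM (−1.17 ± 0.14), S100A10 at −1.02 ± 0.14, LGALS1 at −0.76 ± 0.13 and VIM, an intermediate filament, at −0.61 ± 0.14 (not called without library 24 or with library totals). Of 18 glycolysis genes 7 fell and 2 rose: GAPDH was at 2955 and 2645 CPM and at 1002 and 1210 CPM (−1.33 ± 0.14), ALDOA and PGK1 fell by 0.998 ± 0.14 and 0.84 ± 0.14, and ENO1 (−0.21 ± 0.14) did not pass. Of 16 MHC class I and antigen presentation genes 4 rose and 2 fell. B2M, the light chain, was  at 13730 and 12400 CPM and at 7131 and 6469 CPM (−0.94 ± 0.15), while the heavy chains HLA-B (0.01 ± 0.13) and HLA-C (−0.25 ± 0.13) did not pass.

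Stress and survival lists showed no common direction, and their counts are to be read beside the 18.7% of all genes that rose and the 18.1% that fell. The p53 and cholesterol lists lay below both shares. Of 32 genes of endoplasmic reticulum stress and the ATF4 response 10 fell and 4 rose (5 and 1 without library 24), with HSPA5 at −0.44 ± 0.14, PDIA3 at −0.52 ± 0.14, CALR at −0.22 ± 0.14 and HSP90B1 at 0.18 ± 0.15, of which the first 2 passed, though neither did so without library 22, without library 24 or with library totals. Of 27 BCL2 family and caspase genes 7 rose and 3 fell, and this lean to rises was not kept without library 22, 23 or 24. CFLAR, an inhibitor of caspase-8, was at 90.6 and 125 CPM in libraries 21 and 23 and at 232 and 205 CPM in 22 and 24 (0.96 ± 0.17), MCL1 was at 0.46 ± 0.17 and did not pass under 8 of the alternatives, CYCS, cytochrome c, fell (−1.05 ± 0.17) and BAX fell (−0.63 ± 0.15, not called with library totals). Of 22 p53 targets 3 rose and 3 fell, with ZMAT3 at 0.82 ± 0.18 (not called with DESeq2), and BTG2 (0.14 ± 0.18) and SESN1 (0.18 ± 0.17) short of the test. Of 25 AP-1 and immediate early genes 8 fell and 5 rose (5 and 2 without library 24): JUND was at −0.69 ± 0.15 (not called with library totals), KLF6 at 0.58 ± 0.15 (not called without library 24), and BTG1 (−0.14 ± 0.14) and ZFP36L2 (−0.32 ± 0.15) did not pass. Of 33 interferon-stimulated genes 11 rose and 7 fell, with fewer of both when library 22 or 24 was left out. Of the 4 most abundant, ISG15 fell (−0.49 ± 0.15, not called without library 24 or with library totals), while IFITM2 (−0.21 ± 0.14), IFI16 (0.05 ± 0.14) and IRF1 (−0.35 ± 0.15) did not pass. Of 23 cholesterol genes 3 rose and 3 fell, with FDPS at −0.72 ± 0.19, EBP at −0.90 ± 0.20 (neither called without library 24), FDFT1 at −0.39 ± 0.20 and IDI1 at −0.24 ± 0.19. No MHC class II gene had enough UMIs to be tested.

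The S phase and mitosis lists had a smaller share of calls than the 36.8% of all genes, and histones a larger one. Of 36 S phase genes 5 fell and 1 rose, with fewer falls without library 22, 23 or 24 and as many rises as falls without 23. TYMS was at −0.87 ± 0.18 and SLBP at −0.69 ± 0.19, neither called without library 24. TYMS was at −1.76 with cells over 5000 UMIs left out, and NASP (−0.42 ± 0.17) and PCNA (−0.38 ± 0.19) were short of the test. Of 46 mitosis genes 10 fell and 4 rose. STMN1, which destabilises microtubules, was at 423 and 557 CPM in libraries 21 and 23 and at 119 and 202 CPM in 22 and 24 (−1.58 ± 0.18, and −2.45 with cells over 5000 UMIs left out), TUBA1B fell by 0.89 ± 0.14 and HMGB2 by 0.60 ± 0.15 (not without library 24 or with library totals), and ANP32E (−0.16 ± 0.18) did not pass. Of 16 histone genes 6 rose and 5 fell (2 and 3 without library 24): the replacement histones H3F3A, H3F3B and H2AFZ fell by 0.74 ± 0.14, 0.75 ± 0.13 and 0.97 ± 0.15, and the replication-dependent HIST1H4C was at 204 and 394 CPM against 372 and 624 CPM (0.72 ± 0.20), an overlap. With cells over 5000 UMIs left out, HIST1H4C was at −0.12 and no longer passed, and those few large cells held 5.40%, 8.32%, 11.1% and 12.04% of the UMIs summed in libraries 21, 23, 22 and 24.

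The 12 genes of the second preparation with the largest rises were TTN, NBPF10, ANKRD36C, HIST1H1B, GOLGA8A, GNLY, TNRC6C, NPIPB5, YLPM1, PHRF1, HIST2H2AC and KMT2C. TTN encodes titin, the largest known human protein (ENSG00000155657), and was at 4.77 and 4.73 CPM in libraries 21 and 23 and at 64.4 and 82.7 CPM in 22 and 24 (3.96 ± 0.34, adjusted p = 7.68e-10). KMT2C, a large histone methyltransferase, was at 83.5 and 83.6 CPM and at 304 and 273 CPM (1.78 ± 0.16). TNRC6C, of the microRNA silencing complex, was at 15.5 and 19.4 CPM and at 48.3 and 79.2 CPM (1.88 ± 0.28). PHRF1 was at 1.85 ± 0.31 and YLPM1 at 1.85 ± 0.29, the latter with 0.99 and no call without library 24. NBPF10 (14.3 and 15.2 against 139 and 141 CPM), ANKRD36C (33.4 and 33.6 against 163 and 170 CPM), GOLGA8A (21.5 and 24.7 against 84.5 and 105 CPM) and NPIPB5 (32.2 and 25.2 against 74.5 and 119 CPM) belong to families of near-identical copies, so which copy was counted is uncertain. The histone genes HIST2H2AC (1.82 ± 0.26) and HIST1H1B (2.24 ± 0.38) rose, and HIST1H1B was at 0.83 with no call without library 24.

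The 12 with the largest falls were NME1-NME2, ID3, PET100, RGS16, AIF1, PRDX1, DDIT4, NFYB, CKS2, RPL34, POLR2K and EIF3E. PRDX1, a peroxiredoxin that removes peroxides, was at 578 and 491 CPM in libraries 21 and 23 and at 133 and 155 CPM in 22 and 24 (−1.87 ± 0.16, adjusted p = 7.64e-10). RGS16, which shortens G-protein signals, was at 134 and 170 CPM and at 44.3 and 37.3 CPM (−1.95 ± 0.21). DDIT4, a stress-induced inhibitor of mTORC1, was at 141 and 107 CPM and at 44.3 and 31.4 CPM (−1.73 ± 0.23). ID3, a transcriptional inhibitor like ID2, moved the opposite way to it, from 87.04 and 66.8 CPM to 22.1 and 13.98 CPM (−2.12 ± 0.29, and −1.23 with stricter marker limits). POLR2K, a small RNA polymerase subunit (−1.68 ± 0.19, and −1.08 with thinned cells), CKS2, a cyclin kinase subunit (−1.70 ± 0.26), and NFYB, a transcription factor subunit (−1.71 ± 0.31), were lower by similar amounts. AIF1 (−1.91 ± 0.28, and −3.48 with cells thinned to 1000 UMIs) is one of the Jurkat markers that fell, as are STMN1 and CD3D, and was at 66.2 to 76.3 CPM in the first preparation and 542 and 552 CPM in its Jurkat-like cells. NME1-NME2 is a read-through of overlapping genes, and both it (34.6 and 128 against 12.1 and 18.6 CPM) and PET100 (150 and 224 against 46.3 and 46.6 CPM) were highest in library 23. NME1-NME2 was at −1.13 without library 23 and was not called with DESeq2.

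**Figure D4:**
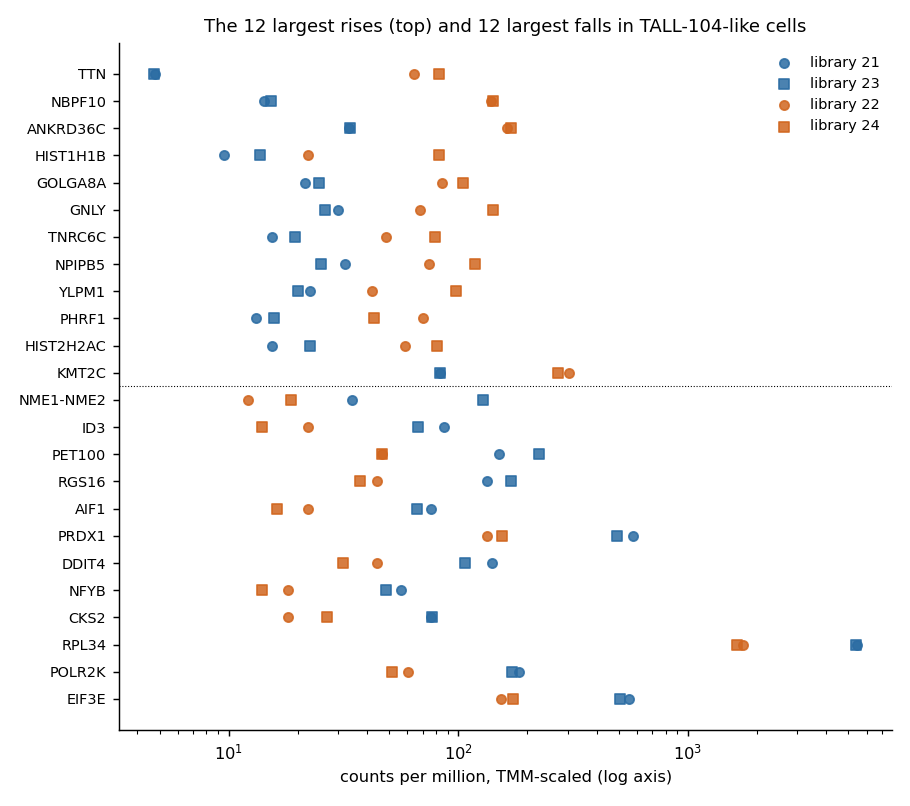
CPM (log axis) of the 12 genes with the largest rises, above the dotted line, and the 12 with the largest falls, below it, in each library. Blue points (21 and 23) and orange points (22 and 24) do not overlap for any of the 24 genes, which were chosen by these changes, and TTN shows the widest gap (4.77 and 4.73 against 64.4 and 82.7 CPM).

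The list of nuclear RNAs, which also holds host genes of small nucleolar RNAs, was not of a piece. NEAT1, the RNA core of paraspeckles (ENSG00000245532), was at 1037 and 1003 CPM in libraries 21 and 23 and at 2784 and 3245 CPM in 22 and 24 (1.57 ± 0.14, adjusted p = 1.31e-09). MALAT1, the most abundant RNA of the cells, was at 34660 and 44230 CPM and at 44900 and 46600 CPM (0.21 ± 0.17) and did not pass, though it passed without library 23 and with library totals. Of 12 tested genes of the list, 2 rose and 7 fell (2 and 3 without library 24), beside 18.7% and 18.1% of all genes. Host genes of small nucleolar RNAs were among the fallers, such as ZFAS1 (−0.57 ± 0.15, not called without library 24 or with library totals) and SNHG8 (−1.13 ± 0.23). In cells of 6% to 8% mitochondrial UMIs NEAT1 held 0.0959% and 0.0799% of human UMIs in libraries 21 and 23 and 0.241% and 0.360% in 22 and 24.

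A few genes were peculiar to a library rather than a preparation. Of 3084 genes with a mean of at least 50 CPM, 6 were over 2-fold higher in library 23 than in each of the others, none in 21 or 22, and 3 in 24, while 4 were over 2-fold lower in library 21 than in each of the others, 3 in 22, none in 23 and 5 in 24. The higher ones of library 23 were RPL17, NBEAL1, IFITM1, NDUFA13, CRIP1 and PFDN1, and those of library 24 GNLY, MKI67 and STARD9. RPL17, for which reads can be shared with an overlapping read-through gene, was at 112 CPM in library 21, 555 in 23, 115 in 22 and 113 in 24, so that library 23 alone was high beside its call (−1.63 ± 0.35). In Jurkat-like cells library 23 was high as well (140, 600, 195 and 214 CPM in libraries 21, 23, 22 and 24). MKI67, a mark of cycling cells, was at 45.3, 78.9, 72.5 and 168 CPM (libraries 21, 23, 22, 24), and the preparations overlapped.

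The number of genes per cell was compared at 1 depth, since it rises with UMIs. In cells thinned to 1000 human UMIs, the median was 568 genes in library 21, 586 in 23, 650.5 in 22 and 658 in 24, or 577 ± 12.7 (SD, n = 2) in the first preparation and 654 ± 5.30 (SD, n = 2) in the second, with 3, 7, 0 and 1 shallower cells left out. Without thinning it was 927, 930, 1406 and 1307 genes. The difference of 77.2 genes was larger than the spread between the libraries of a preparation. The exact two-sided permutation test gave a p of 0.333, the lowest it can give with 2 libraries against 2. In Jurkat-like cells the medians were 646, 660, 646 and 638 genes, a difference of −11 genes.

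The second comparison asked whether TALL-104-like cells changed between preparations as the Jurkat-like cells of the same libraries did. Jurkat-like cells were 1482 of 2431, 2999 of 4592, 129 of 590 and 349 of 1685 human barcodes with at least 1000 UMIs (libraries 21, 23, 22, 24). They were thus a smaller part in the second preparation, and shallower, with medians of 10522 and 9922 UMIs against 17770 and 17986. How many cells of this line each limit took was not counted, and its bearing on the differences below was not tested. In Jurkat-like cells 3493 of 13367 genes (26.1%) were higher and 3969 (29.7%) lower in libraries 22 and 24. A test of the difference itself, with the library as a block, called 1421 of 10914 genes (13.0%): 704 (6.45%) had a higher and 717 (6.57%) a lower log2 fold change in TALL-104-like than in Jurkat-like cells. With library totals 1172 were higher and 512 lower, and without library 24 501 genes passed. All 8 sums were scaled together, which places these differences a median of 0.22 below the plain difference of the 2 separate fits. The test drew the spread wholly from the trend over genes, with no estimate per gene. Its p-values are therefore not printed, and its counts of calls and its SEs carry the same limit.

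Ribosomal protein genes were lower in TALL-104-like cells by this test in 78 of 79 genes, beside 6.57% of all genes (median difference −0.93, and 77 of 79 with library totals). RPL34 was at 3750 and 4263 CPM in Jurkat-like cells of libraries 21 and 23 and at 3232 and 3372 CPM in 22 and 24, a log2 fold change of −0.36 beside −1.69 in TALL-104-like cells, and the difference was −1.56 ± 0.08. The direction of the group in Jurkat-like cells turned with the scaling: 50 fell and 6 rose with TMM, beside 29.7% and 26.1% of all genes in these cells, and 8 fell and 22 rose with library totals. Library totals shifted all genes of these cells, from a median of 0.032 to 0.43, and the ribosomal group from −0.30 to 0.10. Relative to the typical gene the group was lower under both scalings.

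Proteasome genes differed the other way, with 25 of 37 higher by the test and none lower, beside 6.45% and 6.57% of all genes. Their median log2 fold change was −0.71 in TALL-104-like and −1.54 in Jurkat-like cells. Heat shock and chaperonin genes differed in the same direction, with 21 of 32 higher and 1 lower (medians −0.56 and −1.45), beside the same shares. HSP90AA1, not called in TALL-104-like cells, was at 3502 and 3128 CPM in Jurkat-like cells of libraries 21 and 23 and at 740 and 731 CPM in 22 and 24 (difference 2.12 ± 0.09). For HSPA8 the log2 fold changes were −0.50 and −2.27 (difference 1.55 ± 0.10). Nuclear oxidative phosphorylation fell in both lines as well, with 69 of 73 and 72 of 73 genes lower (18.1% and 29.7% of all genes). By the test 11 were higher and 7 lower. With library totals 19 were higher and 4 lower, beside 1172 and 512 of all 10914 genes. In the interleukin-2 group 3 of 26 were higher and 3 lower by the test (6.45% and 6.57% of all genes), and 6 and 2 with library totals. Its receptor chain IL2RB was at or below 1.27 CPM in Jurkat-like cells.

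**Figure D5:**
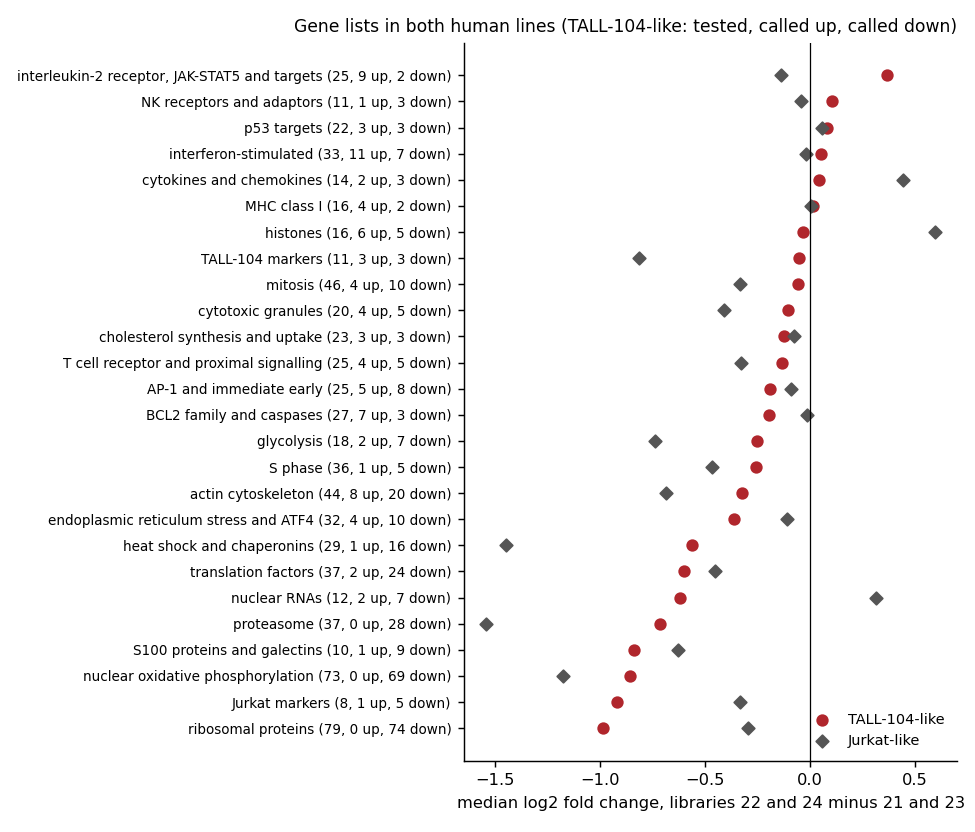
Median log2 fold change (libraries 22 and 24 minus 21 and 23) of each gene list in TALL-104-like (red) and Jurkat-like cells (grey diamonds), with the numbers tested, called up and called down in TALL-104-like cells. The ribosomal protein list is lowest in TALL-104-like cells (−0.99, against −0.30 in Jurkat-like cells), and the proteasome and heat shock lists are lower in Jurkat-like cells (−1.54 and −1.45).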

How the data were processed

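Single-cell RNA of a 4-line lymphocyte mixture had been counted as UMIs per gene and barcode. What the authors deposited are UMI counts with no scaling. Per the labels and file headers, the authors downsampled reads with seqtk and aligned and counted them with STAR and Cell Ranger 3.0.2 (1.2.0 for the combined hg19 and mm10 reference), keeping all barcodes. Downsampling equalises read depth, not UMIs per cell. The 2 preparations are told apart by the library numbers in titles and not by another label. Members and gene lists were chosen with earlier results of these data known.

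UMI counts were summed per library over TALL-104-like or Jurkat-like cells and tested in edgeR 4.0.16 (quasi-likelihood, TMM, filterByExpr, Benjamini-Hochberg over genes the rule did not use); the interaction had 2 residual degrees of freedom. Scripts were tested on simulated data. DESeq2 1.42.0, other scalings, filters and cell limits, thinning, subtraction of free RNA and leaving out each library were alternatives. Named genes were the 12 called genes with the largest change in each direction with at least 50 CPM in the higher preparation, and the 4 most abundant members of each list. Since 106 of 117 genes with at least 1000 CPM fell, members named by abundance can lean to falls more than their list does. Gene locations are not given, since no annotation of hg19 was used here. One library of the series was not analysed here, and single values of a few genes are not reported here. Counting error aside, each preparation has 2 libraries.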

Additional observations from a re-analysis of the deposited data

Results flagged for a closer look

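The change between preparations was tested for a difference between the 2 human lines, and 1421 genes passed. The test drew its spread wholly from a trend over genes, and 442 genes passed with DESeq2 and 345 with thinned cells. Values here are the log2 fold change (libraries 22 and 24 against 21 and 23) in TALL-104-like cells minus that in Jurkat-like cells, for named genes that passed edgeR's quasi-likelihood test of this difference. They were scaled over all 8 sums, which lowers each by a median of 0.22 against the plain difference of the separate fits. Negative values of about that size (VIM, PGK1) thus depend on the scaling. Other negative values are typically smaller in size, and positive ones larger, in the plain difference.

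A lower change in TALL-104-like than in Jurkat-like cells was found, among translation genes, for RPL34 (−1.56), RPLP1 (−1.36), RPL13 (−0.92), RPS12 (−1.07), RPL10 (−0.75), EIF3E (−1.11), TPT1 (−1.06), EEF1A1 (−0.99), GNB2L1 (−0.46) and EIF1 (−0.61). Of lymphocyte genes, KLRB1 (−3.06), CCL5 (−1.64), LTB (−1.24), SOCS1 (−0.95), IL32 (−0.89) and CD3E (−0.39) were lower, while CTSC (0.38) was higher. Several of these rest on low levels in Jurkat-like cells, where KLRB1 was at most 13.5 CPM, CCL5 at most 10.7, SOCS1 at most 11.48 and LTB at most 29.6. The MHC class I genes B2M (−0.42), HLA-B (−0.78) and HLA-C (−0.50) were lower. So were the host genes of small nucleolar RNAs ZFAS1 (−1.18) and SNHG8 (−1.07). Of the nuclear RNAs, MALAT1 (−1.15) was lower and NEAT1 (0.26) higher. The S100, galectin and filament genes S100A11 (−1.67), S100A10 (−1.05), LGALS1 (−0.52) and VIM (−0.23) were lower, with S100A11 at most 3.56 CPM in Jurkat-like cells.

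A higher change in TALL-104-like cells was found for the chaperones HSP90AA1 (2.12), HSPA8 (1.55), HSPA5 (1.40), CALR (1.28), HSP90B1 (1.26), PDIA3 (0.73), HSP90AB1 (0.71) and PTGES3 (0.46) and the proteasome genes PSMA7 (0.92), PSMB1 (0.89) and POMP (0.80). Of the cytoskeleton, ACTB (0.76), PFN1 (0.75) and TUBA1B (0.38) were higher, and TMSB10 (−0.39) and STMN1 (−0.78) lower. The respiratory genes ATP5E (−0.55) and COX7C (−0.56) were lower and CYCS (0.66) higher, and of glycolysis ALDOA (−0.39) and PGK1 (−0.30) were lower and ENO1 (0.29) higher. Early response and p53 genes JUND (−0.42), BTG1 (−0.92), ZFP36L2 (−0.69) and BTG2 (−1.51) were lower, with BTG2 at most 14.9 CPM in Jurkat-like cells. The chromatin genes H3F3B (0.40) and HIST1H4C (0.96) were higher and HMGB2 (−0.63) lower, and of interferon-stimulated genes ISG15 (0.46) was higher and IFITM2 (−0.47) lower.

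Of the genes with the largest rises, NBPF10 (1.35), PHRF1 (1.09), TNRC6C (1.03) and YLPM1 (0.92) had a higher change in TALL-104-like cells and GOLGA8A (−1.19) a lower one. Of those with the largest falls, DDIT4 (−1.88), NFYB (−1.32), AIF1 (−1.09) and PET100 (−0.76) were lower and PRDX1 (0.59) higher.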

How the results depend on the processing

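The number of genes called between the preparations, 2951, stayed within 1.5 times under other scalings, no filter on low counts (2803), the block of targeted cell number (3342), mitochondrial share under 20% (3549), the UMI and marker limits, over 50% human UMIs (3074, chosen after seeing the data) and subtraction of free RNA (2703). It was 970 with the DESeq2 Wald test (323 higher, 647 lower; 1830 at an unadjusted p) and 1546 with cells thinned to 1000 UMIs, and 1346 (without library 24) to 2688 (without library 21) with a library left out. With the scaling by DESeq2 size factors in edgeR it was 2932 (1436 higher, 1496 lower). The count for the difference between lines, 1421, was 442 with DESeq2 and 345 with thinned cells, and 501 (without library 24) to 1157 with a library left out. With library totals, chosen after seeing the data, it was 1684. In none of these settings did a gene called in both have the opposite sign. The difference in genes per cell ran from 68.2 to 86.2 with a library left out, and was 76.5 without mitochondrial genes and 79 at no more than 5000 UMIs. Of 93 called named genes, 57 stayed called in every alternative that gave a value and 36 did not in at least 1. With library totals PTPRC, LTB, XCL1, HSP90AA1, HSP90B1, BTG2, SESN1, IFI16 and HLA-B also passed as higher.

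Relative to the median of all genes, ribosomal proteins ranged from −1.11 to −0.93, nuclear oxidative phosphorylation from −0.98 to −0.83, the proteasome from −0.82 to −0.54 and the interleukin-2 group from 0.26 to 0.44. Lists near 0 changed sign. With a library left out, NK receptors ran from −0.26 (without library 23) to 0.27, with −0.11 without library 22, cytokines from −0.14 (without library 22, and without library 23) to 0.062, the BCL2 family from −0.27 to 0.044 (without library 21), S phase genes from −0.34 to 0.0073 (without library 23) and mitosis genes from −0.31 to 0.17 (without library 22). With stricter marker limits NK receptors were at −0.12 and S phase genes at 0.070. With mitochondrial share under 20% cytokines were at −0.115. After subtraction of free RNA S phase genes were at 0.085 and mitosis genes at 0.17, and with at least 2000 UMIs MHC class I was at 0.12. At no more than 5000 UMIs mitosis genes were at −0.62, histones at −0.47 and HIST1H4C at −0.12. Over all alternatives, histones (−0.47 to 0.025), cholesterol (−0.40 to 0.068), p53 targets (−0.083 to 0.13), interferon-stimulated genes (−0.055 to 0.30) and TALL-104 markers (−0.33 to 0.028) also took both signs. The cause was not tested. A mitochondrial limit of 5% and limits of 1% and 5% mouse UMIs left fewer than 20 cells in a library and could not be run. The labels give the preparations no shared replicate number, and the block of targeted cell number (21 with 22, 23 with 24) pairs them by that number only. Library 22, with 152 cells, limits what can be seen in rare transcripts.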

Other observations

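Genes were also grouped by the form of their symbol, chosen after values were seen. Of 181 zinc finger genes (ZNF) tested in TALL-104-like cells, 28 rose, a share below the 18.7% of all genes, and 3 fell, beside 18.1% of all genes lower, with a median log2 fold change of 0.27, and they held 0.460% and 0.479% of the UMIs of libraries 21 and 23 and 0.690% and 0.740% of those of 22 and 24. Genes still named after their clones, mostly non-coding, rose in 33 of 132 and fell in 9 (median 0.22). In Jurkat-like cells 142 of 390 zinc finger genes and 401 of 1250 clone-named genes rose, and 29 and 56 fell, beside 26.1% of all genes higher and 29.7% lower in these cells. Mitochondrial ribosomal protein genes, the nuclear-coded ribosome of mitochondria, fell in 47 of 72 in TALL-104-like cells with none higher (median −0.72) and in 72 of 75 in Jurkat-like cells (median −1.34). All 5 tested snoRNA host genes of the SNHG family fell in TALL-104-like cells (median −1.19), as did all 6 tested in Jurkat-like cells (median −0.75).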
